A study of Mus musculus with 48 samples.

Results

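The molecular chaperones examined here are 37 genes of the 53345 in the deposited matrices, taken by their symbols: 15 cytosolic heat shock genes, 3 mitochondrial chaperones and 19 genes of the endoplasmic reticulum (ER). All 37 are present and all 37 passed the filters of the test. Their RNA was measured by bulk RNA-seq in splenic regulatory T cells (Tregs) and in conventional CD4 T cells (Tcons) of mice given interleukin-2 (IL-2), a cytokine on which Tregs depend.

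C57BL/6 females of 8 to 12 weeks, an inbred laboratory strain with no engineered allele, were treated with 2 intraperitoneal doses of 500 µg antibody, an isotype control in one arm and a blocker of MHC class II in the other (MHC class II presents antigen to the CD4 T cell receptor, TCR). A single subcutaneous dose followed, of PBS or of human IL-2 as an Fc fusion (25 µg): wild-type (WT IL-2), H16R, which carries the H16R substitution, or the 3x mutein, which carries D20A, V91K and M104V. Spleens were taken on day 4. This gave 32 Treg libraries, 4 in each of 8 groups, and 16 Tcon libraries, 2 a group, from mice that also gave Tregs. Tregs were the CD25-binding fraction of a magnetic kit and Tcons its CD25 flow-through, so both were enriched rather than sorted to single populations, and the IL-2 was a human protein acting in a mouse.

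Chaperones bind unfolded proteins and help them reach or regain their shape. In the cytosol, heat and other proteotoxic stress release Hsf1, the transcription factor that switches on Hsp70 and Hsp90 family genes, the J-domain co-chaperones that hand clients to Hsp70, and Bag3, which releases them. In the ER, unfolded protein is sensed by Ern1 (IRE1), Eif2ak3 (PERK) and Atf6, and the transcription factors they act through, among them Xbp1, raise ER chaperones, disulfide isomerases and the degradation machinery; cells that secrete much protein, above all plasma cells, run this programme at a high level.

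The promoter sequences are shown first, for ER genes that carry a known stress motif and for the shared Hspd1 and Hspe1 promoter. RefSeq windows on mouse GRCm38.p6 were matched for 30 of the 37 genes, and the 250 bases before each start site were searched on both strands. The ER stress element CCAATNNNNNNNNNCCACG was found for 7 of 17 ER genes (Hspa5, Calr, Hsp90b1, Canx, Pdia6, Dnajc3 and Creld2; 41.2%), for 0 of 11 cytosolic genes and for 35 of 27025 genes in the table (0.13%). A shorter element (ERSE-II: ATTGG, any 1 base, then CCACG) was found before Herpud1 alone among these genes, and before 10 of all genes (0.037%). The heat shock element GAANNTTCNNGAA was found before Hspd1 and Hspe1 and before 139 of all genes (0.514%), and for 0 of 11 cytosolic genes; these are the letters of a strict motif in a short window. The part CCAAT stood before 16 of 17 ER genes (94.1%) against 37.5% of all genes, and CCACG before 13 of 17 (76.5%) against 31%, counts that include the copies inside the elements. Each sequence reads 5′ to 3′ on the strand of its gene, lies upstream of the start site, and has the motif in capitals in either orientation:
Hspa5 (chr2:34772005-34772063, plus strand): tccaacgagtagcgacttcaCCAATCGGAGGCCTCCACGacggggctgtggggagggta
Hsp90b1 (chr10:86705513-86705676, minus strand): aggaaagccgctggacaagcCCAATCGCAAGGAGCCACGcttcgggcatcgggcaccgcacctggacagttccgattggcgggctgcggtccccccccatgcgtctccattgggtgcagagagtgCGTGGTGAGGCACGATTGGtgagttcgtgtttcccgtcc
Pdia6 (chr12:17266471-17266529, plus strand): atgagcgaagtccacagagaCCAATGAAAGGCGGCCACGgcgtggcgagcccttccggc
Creld2 (chr15:88819500-88819558, plus strand): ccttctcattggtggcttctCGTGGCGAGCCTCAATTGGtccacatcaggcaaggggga
Calr (chr8:84847055-84847113, minus strand): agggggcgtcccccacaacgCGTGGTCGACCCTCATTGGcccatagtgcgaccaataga
Hspd1 (chr1:55088039-55088096, minus strand): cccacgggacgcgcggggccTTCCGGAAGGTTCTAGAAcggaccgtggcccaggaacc
Hsp90b1 carries the ER stress element in 2 copies in opposite orientations. Hspd1 and Hspe1, whose proteins work as a pair, start 216 bases apart on opposite strands, so the heat shock element, 2 overlapping matches in the Hspd1 sequence, lies between both genes. A match is a string of letters and not a measured binding site.

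Values are CPM, a gene's counts scaled to the size of its library after TMM normalization, used to compare a gene between samples, and FPKM, which divides by transcript length, is used wherever genes are compared with each other. Total expected counts (M, mega) were 18.28 M to 51.24 M in Tregs and 31.31 M to 51.95 M in Tcons; isotype PBS Tregs were the shallowest at 18.28 M to 34.58 M. Foxp3, the defining Treg gene, ran from 687 to 1249 CPM in Tregs and from 46.8 to 183 CPM in Tcons. The Treg markers sum to 2245 to 4228 CPM in Tregs and to 281 to 646 CPM in Tcons except for isotype WT IL-2 replicate 2, where they reach 1331 CPM. B cell markers sum to 767 CPM in isotype PBS Treg replicate 1 and to 711 CPM in MHC II block WT IL-2 Treg replicate 1, which also holds myeloid markers at 688 CPM; the other libraries of those groups hold at most 190 and 152 CPM of B cell markers. CD8 T and NK markers sum to 16.3 to 82.8 CPM in Tregs and 37.6 to 197 CPM in Tcons. A pair of isotype WT IL-2 Treg libraries carries the same mouse label and is called replicates 3a and 3b; they differed by more than counting noise and were kept as separate samples.

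RNA of plasma cells, which run the ER programme, was present in all groups. The 9 plasma cell markers, none of them at 0 in all libraries, summed in isotype Tregs to 2727 to 4814 CPM with PBS, 1798 to 2667 with WT IL-2, 457 to 870 after H16R and 159 to 446 with the 3x mutein. Under MHC II block the same sums were 1555 to 3929 CPM with PBS, 4144 to 10229 with WT IL-2, 1110 to 3784 after H16R and 1463 to 4403 with the 3x mutein. The isotype PBS and mutein groups therefore do not overlap in plasma cell RNA. Neither do the PBS and WT IL-2 groups in either arm, whereas under block the PBS, H16R and 3x groups overlap. For this reason counts are also given from a fit that holds the log2 of this sum as a covariate. That fit called fewer of all genes too: in isotype Tregs the share called in either direction against PBS was 37.7% in place of 64.2% for H16R and 13.8% in place of 63.6% for the 3x mutein, so its counts stand beside its own shares. In bulk libraries fewer cells of a type and less RNA per cell cannot be told apart.

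The most abundant chaperone RNAs in Tregs were constitutive. Median FPKM over the 32 Treg libraries was highest for Hspa8, the constitutive Hsp70, at 911, followed by Hsp90ab1, the constitutive Hsp90, at 784 and Hspa5 (BiP), the Hsp70 of the ER, at 533. Calr, a lectin chaperone of glycoproteins, followed at 227, the disulfide isomerase Pdia3 at 172, the ER Hsp90 Hsp90b1 at 170, and Hsp90aa1, the stress-inducible Hsp90, at 164. The lowest was Hspa1a, an inducible Hsp70, at 9.16, with its near copy Hspa1b at 17.2. Hspa1a was also the most variable, its highest Treg library being 61.5-fold above its lowest in FPKM, against 38.1-fold for Hspa1b, 5.63-fold for Dnajb4 and 1.31- to 3.75-fold for the other 34 genes. Hspa1a and Hspa1b are nearly identical in sequence, so the split of reads between them is uncertain.

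The inducible heat shock genes were lower in Tregs of mutein-treated mice. In isotype Tregs 12 of the 15 cytosolic genes fell with H16R and 12 with the 3x mutein, and 0 rose with either; of all 12390 genes tested, 32.8% fell and 31.4% rose with H16R, and 32.3% fell and 31.3% rose with the 3x mutein (edgeR quasi-likelihood test, Benjamini-Hochberg adjusted p under 0.1 over all tested genes). With WT IL-2 7 of 15 fell and 0 rose, against 26.2% and 26% of all genes. Over the 15 genes the median log2 change was -0.20 for WT IL-2, -0.35 for H16R and -0.42 for the 3x mutein, where the medians of all genes lay between -0.012 and -0.008. All 3 comparisons share the 4 isotype PBS libraries.

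Hspa1a carried the largest change. In isotype PBS Tregs it stood at 68.1, 78.9, 209 and 153 CPM, with WT IL-2 at 33.7, 27.0, 77.0 and 154, with H16R at 26.7, 23.8, 32.9 and 15.6, and with the 3x mutein at 3.48, 6.33, 9.29 and 8.65. The PBS libraries thus lay above every H16R and every 3x library, while the WT IL-2 libraries overlapped them. The log2 change was -4.18 ± 0.61 (SE, 4 against 4 mice, adjusted p = 1.63e-06) with the 3x mutein and -2.35 ± 0.55 (adjusted p = 0.000601) with H16R, whereas with WT IL-2 it was -0.80 ± 0.52 and did not pass (adjusted p = 0.213). Hspa1b fell with the 3x mutein as well, from 101, 132, 305 and 224 CPM with PBS to 8.19, 13.3, 21.8 and 21.9 (log2 change -3.53 ± 0.52, adjusted p = 1.61e-06).

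Co-chaperones and Hsp90 fell by less and with less spread. Hsph1 (Hsp110), which resets Hsp70 by nucleotide exchange, went from 167, 157, 271 and 294 CPM with PBS to 129, 138, 127 and 118 with H16R and 91.9, 95.4, 107 and 117 with the 3x mutein, the last a log2 change of -1.10 ± 0.16 (adjusted p = 1.4e-06). Dnajb1 (Hsp40), the J-domain partner of Hsp70, went from 174, 183, 274 and 254 CPM to 114, 123, 134 and 126 with the 3x mutein (-0.82 ± 0.12, adjusted p = 9.79e-07). In neither gene did the PBS libraries overlap the mutein libraries. Dnajb4, another J-domain protein, stood at 50.4, 61.0, 73.9 and 86.7 CPM with PBS and at 35.8, 39.9, 45.1 and 47.3 with the 3x mutein (-0.68 ± 0.13, adjusted p = 0.000101). Hsp90aa1 stood at 657, 695, 802 and 896 CPM with PBS and at 482, 491, 512 and 523 with the 3x mutein (-0.59 ± 0.07, adjusted p = 3.79e-08). Its constitutive paralogue Hsp90ab1 also fell, from 2689, 2395, 2774 and 2717 CPM to 1848, 1919, 1960 and 1905 (-0.46 ± 0.05, adjusted p = 8.96e-09). Every 3x library lay below every PBS library for these 3 genes too.

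Smaller falls with the 3x mutein reached Bag3 (-0.42 ± 0.10), the J-domain protein Dnaja1 (-0.41 ± 0.08), Stip1, which links Hsp70 to Hsp90 (-0.38 ± 0.06), and Hsf1 itself (-0.27 ± 0.05), at adjusted p from 5.5e-06 for Stip1 to 0.000379 for Bag3. The fall of Hspa4, an Hsp110 relative, was -0.08 ± 0.04 (adjusted p = 0.0805) and its call was lost in 10 of the 32 fits that left out 1 library: each of the 4 isotype 3x and the 4 block 3x libraries, isotype PBS replicate 3, and isotype PBS replicate 4 (-0.02, adjusted p = 0.67). The abundant Hspa8 did not pass, at 2341, 2172, 2507 and 2606 CPM with PBS and 2381, 2048, 2347 and 2427 with the 3x mutein (log2 change -0.05, 95% interval -0.19 to 0.09). The Hsp90 co-chaperones Ahsa1 (-0.11 ± 0.07) and Chordc1 (0.05 ± 0.06) did not pass either. The constitutive Hsp70 and these partners are the genes of the 15 without a call in this comparison.

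**Figure D1:**
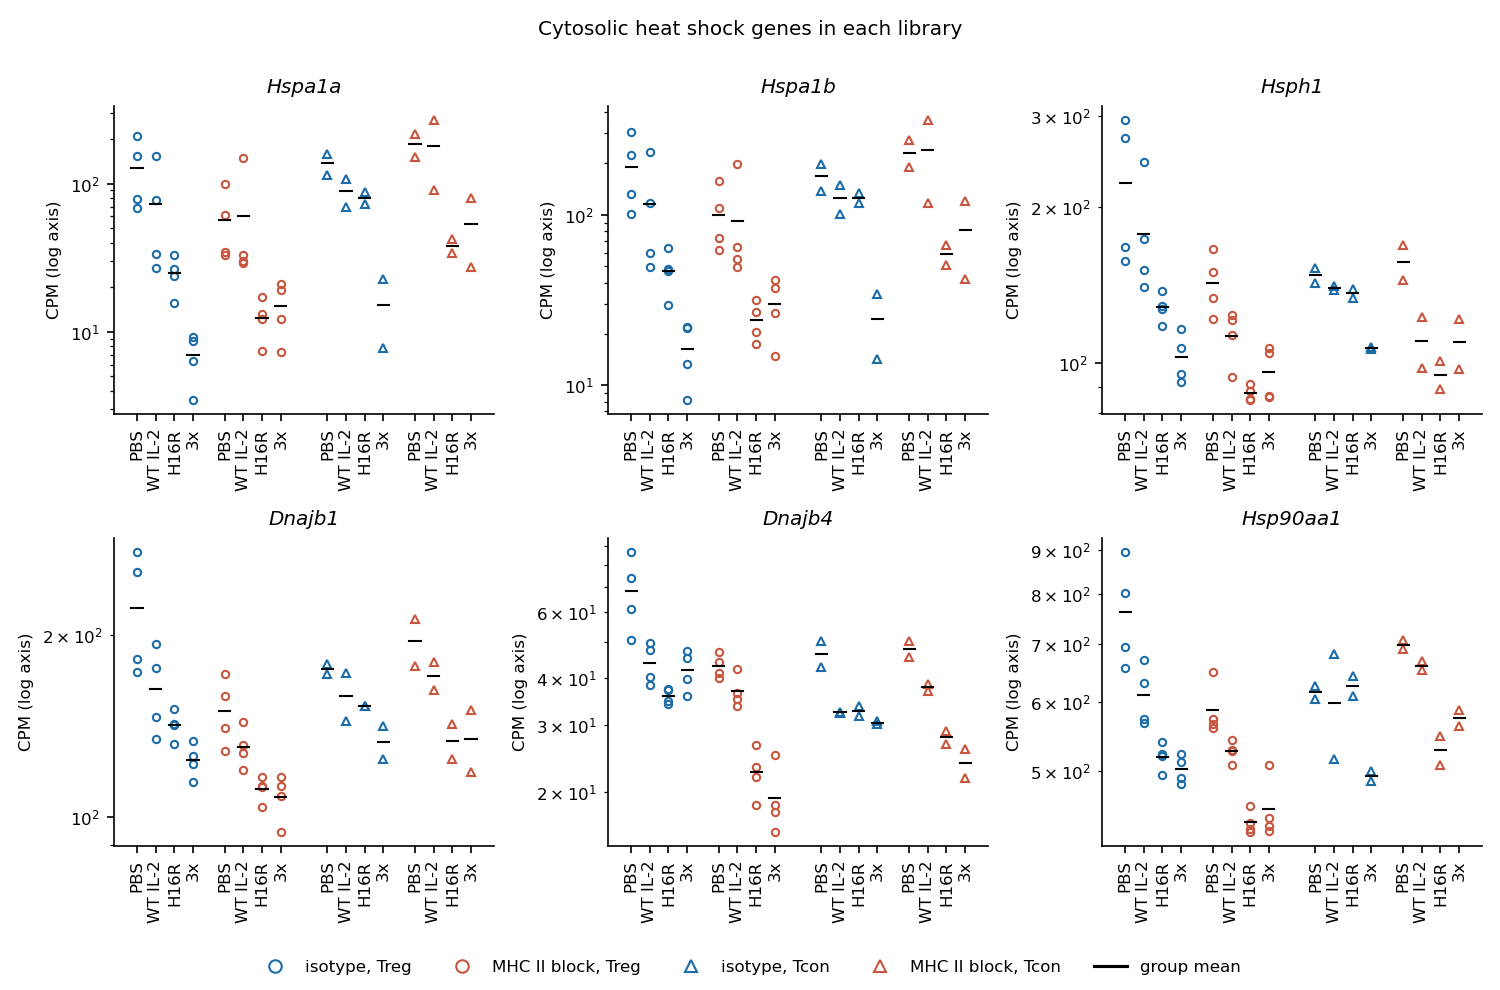
CPM (log axis) of 6 cytosolic heat shock genes in every library of the 8 treatment groups; circles are Tregs, triangles Tcons, blue isotype, red MHC II block, and black bars the group means. Isotype 3x Tregs sit between 3.48 and 9.29 CPM for Hspa1a, below all isotype PBS Tregs at 68.1 to 209 CPM.

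Other RNA moved with these falls. The 10 immediate early genes (such as Fos, Jun and Egr1), which respond to cell handling and to the TCR, summed to 16005 to 17524 CPM in isotype PBS Tregs, 13951 to 16604 with WT IL-2, 13729 to 14504 after H16R and 10843 to 13402 with the 3x mutein, a series without overlap between PBS and either mutein; its part in the result was not tested. B cell markers moved without overlap as well, from 151 to 767 CPM with PBS to 41.1 to 54.2 CPM after H16R and 39.5 to 51.9 CPM with the 3x mutein, as did Treg markers from 2449 to 3101 CPM to 3970 to 4069 and 3881 to 4070 CPM, T cell markers from 993 to 1178 CPM to 1604 to 1659 and 1424 to 1494 CPM, and CD8 T and NK markers from 33.5 to 39.0 CPM to 16.3 to 22.2 and 19.3 to 24.4 CPM; their part was not tested either. With plasma cell RNA as a covariate, 9 cytosolic genes fell with H16R (all genes in that fit, 16.9%) and 3 with the 3x mutein (5.38%), these 3 being Hsp90aa1 (-0.50), Hsp90ab1 (-0.32) and Stip1 (-0.46). Hspa1a then had a log2 change of -1.26 ± 1.08 (adjusted p = 0.528) with the 3x mutein and -0.45 (adjusted p = 0.706) with H16R. Since plasma cell RNA separates the isotype 3x from the isotype PBS libraries completely, its part and that of the treatment cannot be told apart within this arm.

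Under MHC II block, where the plasma cell sums of PBS and 3x libraries overlap, heat shock genes fell too. The 3x mutein lowered 10 and raised 3 of the 15 genes, against 38.3% lower and 34.7% higher of all genes, and with the plasma covariate 10 fell and 2 rose (38.1% and 34.8%). H16R lowered 11 and raised 1 (all genes, 33.8% and 32.7%), and WT IL-2 lowered 4 and raised 0 (all genes, 13.7% and 21.9%). Hspa1a went from 34.6, 61.6, 99.5 and 33.2 CPM with PBS to 7.34, 21.1, 12.2 and 19.1 with the 3x mutein, without overlap (-1.95 ± 0.56, adjusted p = 0.0031; with the covariate -1.82, adjusted p = 0.00218). With H16R it stood at 13.3, 12.2, 17.1 and 7.37 CPM (-2.21 ± 0.58, adjusted p = 0.00167). With WT IL-2 it stood at 149, 28.9, 32.8 and 30.0 CPM and did not pass (0.08 ± 0.52, adjusted p = 0.924); the library at 149 CPM is the one with B cell and myeloid RNA.

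Dnajb4 fell with both muteins in this arm. It stood at 40.1, 44.2, 47.1 and 41.3 CPM with PBS, 33.8, 36.5, 42.2 and 35.2 with WT IL-2, 23.2, 26.6, 21.8 and 18.4 with H16R, and 15.7, 25.0, 18.4 and 17.7 with the 3x mutein (-1.18 ± 0.14, adjusted p = 2.1e-08). Bag3 went from 25.2, 31.8, 32.8 and 27.9 CPM to 14.6, 21.0, 20.6 and 18.8 with the 3x mutein (-0.66 ± 0.10, adjusted p = 7.02e-07), and Hsf1 from 73.2, 67.7, 70.9 and 69.5 to 48.3, 53.5, 49.3 and 49.3 (-0.50 ± 0.05, adjusted p = 3.23e-09). None of these 3x libraries reached a PBS library. Hsp90aa1 (-0.39 ± 0.07), Dnajb1 (-0.48 ± 0.12) and Hsph1 (-0.58 ± 0.16, adjusted p = 0.00212) fell as well. The 3 genes that rose were Hspa8 (0.16 ± 0.07), Hspa4 (0.11 ± 0.04) and Chordc1 (0.12 ± 0.06), and without TMM scaling 1 cytosolic gene rose. The Hspa8 call was lost without block 3x replicate 4 (0.10, adjusted p = 0.234) and that of Chordc1 without the same library (0.09, adjusted p = 0.232), among others. Immediate early genes summed here to 13305 to 14432 CPM with PBS, 10731 to 11121 CPM with H16R and 7855 to 9994 CPM with the 3x mutein. With H16R Treg markers (3479 to 3848 CPM against 2608 to 2816) and proliferation markers (700 to 816 CPM against 350 to 379) also stood apart from PBS. The part of these sums was not tested.

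MHC II block by itself went with lower heat shock RNA. In PBS Tregs 9 of the 15 cytosolic genes were lower than with isotype antibody and 0 were higher, where 8.13% of all genes were lower and 6.01% higher. Dnajb4 (-0.65 ± 0.14, adjusted p = 0.00259), Hsph1 (-0.64 ± 0.16, adjusted p = 0.0107), Dnajb1 (-0.56 ± 0.12) and Dnaja1 (-0.49 ± 0.08, adjusted p = 0.000246) showed the largest of these differences. For Hspa1a it was -1.14 ± 0.52, which did not pass (adjusted p = 0.177). In this comparison 4 of 19 ER genes and 2 of 3 mitochondrial genes were also lower, and plasma cell sums overlapped (2727 to 4814 CPM with isotype, 1555 to 3929 CPM with block); with the covariate the cytosolic and ER counts were again 9 and 4 and the mitochondrial count was 1 (all genes lower in that fit, 8.1%). CD8 T and NK markers did not overlap either, at 33.5 to 39.0 CPM with isotype and 25.3 to 31.0 CPM with block. Immediate early genes did not overlap, at 16005 to 17524 CPM with isotype and 13305 to 14432 CPM with block, and were lower with block like the heat shock genes; their part was not tested.

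The effect of the 3x mutein on Hspa1a differed between the antibody arms. The interaction, which is the change against PBS under block minus that with isotype, was 2.23 ± 0.80 on the log2 scale for Hspa1a (adjusted p = 0.036), and -0.56 ± 1.15 with the plasma covariate (adjusted p = 0.787). For Hspa1b it was 1.77 ± 0.68 (adjusted p = 0.0479), lost without isotype PBS replicate 3 (1.445, adjusted p = 0.118). Of the 15 cytosolic genes 5 had a higher and 2 a lower interaction with the 3x mutein, 9 and 2 without TMM scaling, and 8 and 1 without the 2 libraries rich in B cell RNA, against 20.3% and 18.7% of all genes.

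The muteins differed from WT IL-2 at the same dose and day. Plasma cell sums did not overlap between isotype WT IL-2 (1798 to 2667 CPM) and H16R (457 to 870 CPM) or the 3x mutein (159 to 446 CPM). Plasma cell RNA and treatment therefore cannot be told apart between these groups. Of the possible pairs 2 were fitted, each mutein against WT IL-2 in isotype Tregs, with p adjusted over all tested genes. Against WT IL-2, H16R had 7 cytosolic genes lower and 0 higher (all genes, 9.77% and 8.87%), and the 3x mutein had 8 lower and 0 higher (all genes, 17.7% and 16.9%). With the plasma covariate 0 cytosolic genes passed for H16R, 3 of them at an unadjusted p under 0.05 (all genes passing in that fit, 2.23%), and without H16R replicate 3 the count over all 37 genes went from 20 to 6. Hspa1a was lower with the 3x mutein by -3.38 ± 0.60 (adjusted p = 0.000135), its 4 libraries at 3.48 to 9.29 CPM lying below the WT IL-2 libraries at 27.0 to 154. With H16R the difference was -1.55 ± 0.54 (adjusted p = 0.0568) and was lost without WT IL-2 replicate 3b (-0.88, adjusted p = 0.332), H16R replicate 3 or H16R replicate 4. Hsph1 was lower with the 3x mutein (-0.78 ± 0.16, adjusted p = 0.000607), as were Bag3 (-0.51 ± 0.09) and Hsp90ab1 (-0.36 ± 0.05, adjusted p = 5.39e-06). For Dnajb4, which fell with all 3 molecules, the 3x mutein and WT IL-2 were not distinguished (-0.05, 95% interval -0.31 to 0.21), nor for Hspa8 (-0.12, 95% interval -0.26 to 0.02). With the plasma covariate 1 of the 37 genes passed for H16R against WT IL-2, and 0 for the 3x mutein, 4 of them at an unadjusted p under 0.05; of all genes 2.23% and 0.541% passed in that fit, against 18.6% and 34.7% without the covariate. DESeq2 and limma were not run with the covariate.

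**Figure D2:**
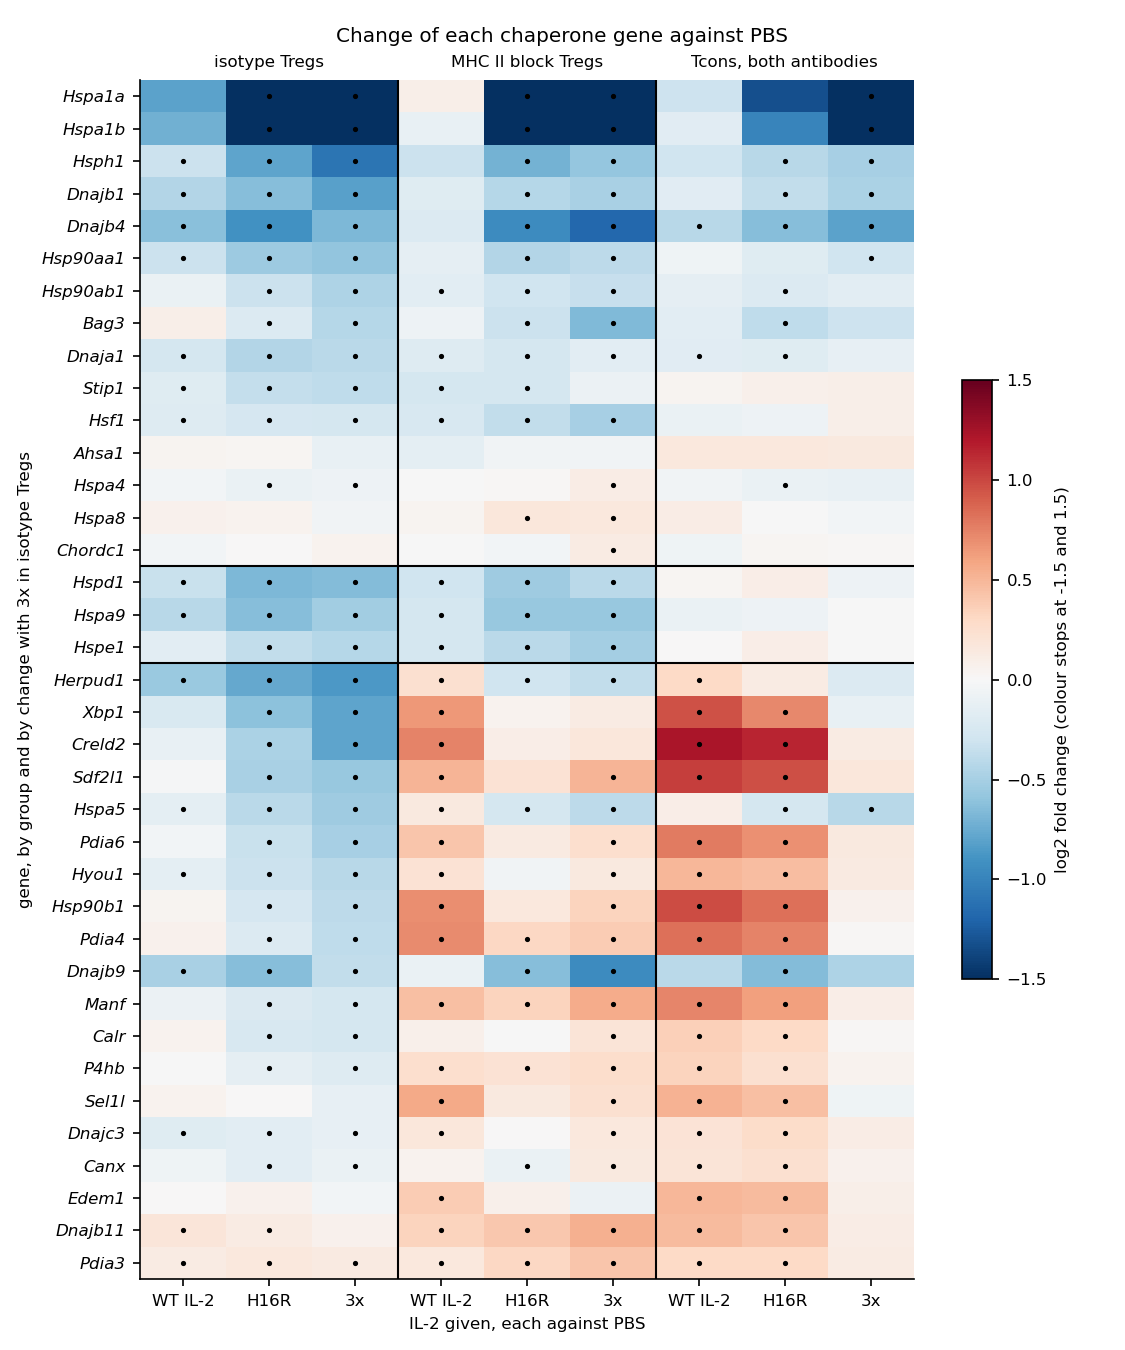
Heat map of log2 changes of the 37 genes (rows, by role) in the fitted comparisons (columns); dots mark adjusted p under 0.1, and colour stops at 1.5 in either direction. Cytosolic and mitochondrial rows are mostly lower with the muteins in Tregs of both arms, while ER rows are mostly lower with the muteins and isotype antibody, mostly higher with WT IL-2 and the 3x mutein under block and with WT IL-2 and H16R in Tcons, and mixed or without a dot in H16R under block (5 higher, 4 lower of 19) and the 3x mutein in Tcons (0 higher, 1 lower).

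The 3 mitochondrial chaperones fell with every mutein treatment in both arms. Hspd1 (Hsp60) forms the folding chamber of the mitochondrial matrix, Hspe1 (Hsp10) is its lid and Hspa9 (mortalin) the matrix Hsp70. All 3 fell with H16R and all 3 with the 3x mutein, in both arms; with WT IL-2 2 of 3 fell with isotype antibody and 3 of 3 under block. Of all genes, 32.8%, 32.3% and 26.2% fell with H16R, the 3x mutein and WT IL-2 with isotype antibody, and 33.8%, 38.3% and 13.7% under block. The median log2 change with isotype antibody was -0.34 for WT IL-2, -0.64 for H16R and -0.52 for the 3x mutein, and under block it was -0.27, -0.54 and -0.52.

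Hspa9 had narrow groups. In isotype Tregs it stood at 208, 197, 202 and 220 CPM with PBS, 149, 163, 152 and 156 with WT IL-2, 132, 142, 123 and 134 after H16R, and 142, 146, 139 and 147 with the 3x mutein. No treated library reached a PBS library. The log2 change was -0.42 ± 0.04 (adjusted p = 7.75e-09) with WT IL-2, -0.64 ± 0.04 (adjusted p = 1.04e-12) with H16R and -0.52 ± 0.04 (adjusted p = 7.83e-11) with the 3x mutein. Under block it went from 185, 192, 197 and 191 CPM to 131, 128, 126 and 132 with H16R and to 130, 135, 120 and 135 with the 3x mutein (-0.56 ± 0.04, adjusted p = 4.24e-12).

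Hspd1 stood at 247, 236, 287 and 282 CPM in isotype PBS Tregs, 193, 199, 216 and 226 with WT IL-2, 169, 175, 159 and 156 after H16R, and 172, 170, 157 and 169 with the 3x mutein. Again no treated library overlapped PBS. The change was -0.67 ± 0.07 (adjusted p = 9.91e-10) with H16R and -0.65 ± 0.06 (adjusted p = 2.43e-09) with the 3x mutein, and under block it was -0.54 ± 0.06 and -0.41 ± 0.06 (adjusted p = 5.61e-08 and 3.09e-06). Hspe1, from the same stretch of promoter DNA, had a wider PBS group with 121, 99.3, 127 and 81.2 CPM, which 82.0 CPM in 3x replicate 4, 90.6 CPM in H16R replicate 2 and all 4 WT IL-2 libraries (88.0 to 101.7 CPM) overlapped. Its change was -0.42 ± 0.08 (adjusted p = 7.83e-05) with the 3x mutein and -0.38 ± 0.08 (adjusted p = 0.000308) with H16R, and it did not pass with WT IL-2 (-0.15 ± 0.08, adjusted p = 0.126). All 3 genes were lower with H16R, and all 3 with the 3x mutein, than with WT IL-2 in isotype Tregs, with differences from -0.10 ± 0.04 (Hspa9 with the 3x mutein) to -0.34 ± 0.06 (Hspd1 with H16R). The smallest of these was lost without WT IL-2 replicate 2 (-0.07, adjusted p = 0.263), and that of Hspe1 with H16R (-0.22 ± 0.08) without WT IL-2 replicate 3b (-0.20, adjusted p = 0.18), among others.

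With the plasma covariate the mitochondrial falls were 3 of 3 with H16R and 2 of 3 with the 3x mutein in isotype Tregs (Hspd1 -0.60, adjusted p = 0.0111; Hspa9 -0.39, adjusted p = 0.00853), and 3 of 3 for both muteins under block; of all genes in that fit 16.9% and 5.38% fell with isotype antibody and 31.9% and 38.1% under block. Against WT IL-2 in isotype Tregs the covariate left 1 of 3 for H16R and 0 of 3 for the 3x mutein, 1 of these at an unadjusted p under 0.05 (all genes passing in that fit, 2.23% and 0.541%). The summed proliferation markers rose in the opposite direction, from 300 to 370 CPM in isotype PBS Tregs to 644 to 1023 CPM with the 3x mutein; no test linked them to the chaperones. The related list of 9 other mitochondrial chaperones and proteases held 2 higher and 4 lower genes with the 3x mutein and isotype antibody, and 3 and 4 under block; of all genes 31.3% were higher and 32.3% lower with isotype antibody, and 34.7% and 38.3% under block, so these counts lie near the background. Among genes with a mean above 5 CPM, Lonp1, a matrix protease, was the largest fall there (-0.35 ± 0.04, adjusted p = 3.85e-08), and Hscb, an iron-sulfur co-chaperone, the largest rise (0.26 ± 0.08, adjusted p = 0.005).

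**Figure D3:**
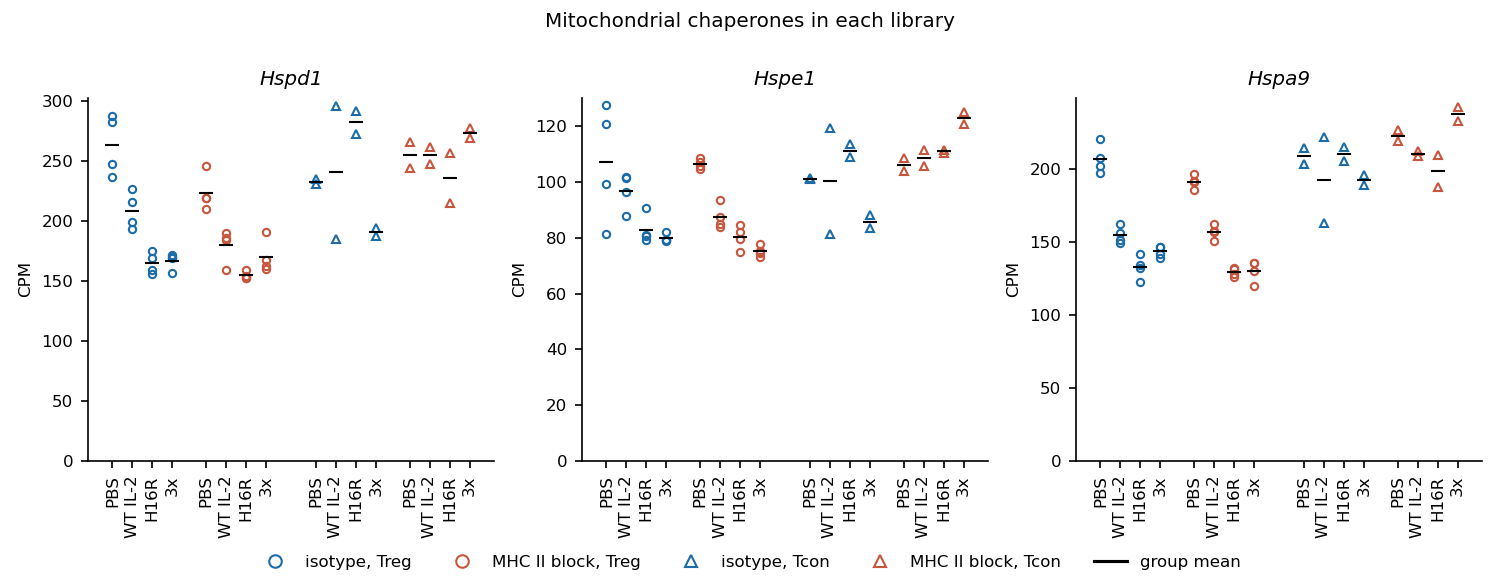
CPM of Hspd1, Hspe1 and Hspa9 in every library; circles are Tregs, triangles Tcons, blue isotype, red MHC II block, and black bars the group means. Treg libraries of mutein-treated mice sit below PBS Tregs for Hspa9 (120 to 147 against 185 to 220 CPM), and Tcons lie between 163 and 243 CPM.

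Most ER genes fell with the muteins in isotype Tregs, whereas under MHC II block most rose with WT IL-2 and with the 3x mutein, and with H16R about as many rose as fell. With isotype antibody 15 of 19 fell and 2 rose with H16R (all genes, 32.8% and 31.4%), and 15 fell and 1 rose with the 3x mutein (32.3% and 31.3%). With WT IL-2 5 fell and 2 rose (26.2% and 26%). Under block 16 rose and 0 fell with WT IL-2 (all genes, 21.9% and 13.7%), and 13 rose and 3 fell with the 3x mutein (34.7% and 38.3%). After H16R 5 rose and 4 fell (32.7% and 33.8%). The counts for WT IL-2 with isotype antibody and for H16R under block lay near or below the shares of all genes. Over all 37 genes the WT IL-2 comparison under block held 16 rises and 7 falls, and 14 and 10 without TMM scaling. The median log2 change of the 19 genes was -0.37 with the 3x mutein and isotype antibody and 0.20 under block.

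ER chaperones fell with the muteins in isotype Tregs. Hspa5 stood at 1798, 1758, 1882 and 2090 CPM in isotype PBS Tregs, 1546, 1767, 1710 and 1773 with WT IL-2, 1393, 1469, 1399 and 1418 after H16R, and 1174, 1288, 1412 and 1300 with the 3x mutein. PBS and mutein libraries did not overlap (H16R -0.40 ± 0.06, adjusted p = 3.82e-06; 3x mutein -0.53 ± 0.06, adjusted p = 5.23e-08). Hsp90b1 (GRP94) went from 492, 460, 539 and 468 CPM with PBS to 372, 358, 374 and 375 with the 3x mutein (-0.40 ± 0.11, adjusted p = 0.00216). Hyou1, an ER Hsp70 relative, fell by 0.42 on the log2 scale with the 3x mutein (adjusted p = 3.95e-06), Calr by 0.26 and the lectin chaperone Canx by 0.10.

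The ER genes that fell most with the 3x mutein were Herpud1, Xbp1 and Creld2. Herpud1, which serves ER-associated degradation, stood at 184, 168, 169 and 175 CPM with PBS, 111, 117, 126 and 120 with WT IL-2, 104.5, 103.5, 101.9 and 99.0 with H16R, and 92.0, 95.4, 99.7 and 93.6 with the 3x mutein (-0.86 ± 0.11, adjusted p = 1.74e-07). Xbp1, the transcription factor of the IRE1 branch, went from 164, 158, 163 and 144 CPM to 90.9, 87.1, 88.8 and 94.2 with the 3x mutein (-0.79 ± 0.12, adjusted p = 2.81e-06). Neither gene's mutein libraries reached the PBS range. Creld2, an ER stress-inducible disulfide isomerase, stood at 45.0, 37.9, 42.8 and 25.3 CPM with PBS and 22.9, 20.8, 22.3 and 21.3 with the 3x mutein (-0.79 ± 0.16, adjusted p = 0.000144). Sdf2l1, a stress-inducible partner of the ER J-domain proteins, went from 26.9, 23.2, 28.0 and 18.8 CPM to 18.1, 15.2, 15.9 and 15.9 (-0.57 ± 0.14, adjusted p = 0.00108). Dnajb9, a J-domain protein that restrains IRE1, went from 124, 141, 140 and 177 CPM to 99.8, 111, 118 and 118 (-0.37 ± 0.09, adjusted p = 0.00127). The lowest PBS values of Creld2 and Sdf2l1 are those of replicate 4, yet no 3x library exceeded them.

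Among the folding enzymes, the isomerases Pdia6 (-0.50 ± 0.09, adjusted p = 2.79e-05), Pdia4 (-0.38 ± 0.10) and P4hb (-0.20 ± 0.05) fell with the 3x mutein and isotype antibody, as did the co-chaperone Dnajc3 (-0.12 ± 0.04). The secreted ER factor Manf fell by 0.27, a call lost without isotype PBS replicate 3 (-0.21, adjusted p = 0.107). Pdia3, which works with Calr and Canx on glycoproteins and MHC class I, was the 1 gene that rose, at 430, 431, 480 and 460 CPM with PBS and 503, 481, 494 and 489 with the 3x mutein (0.14 ± 0.05, adjusted p = 0.0204). Its groups did not overlap. Dnajb11 (0.07 ± 0.06), Sel1l (-0.12 ± 0.09) and Edem1 (-0.05 ± 0.06), the last 2 of ER-associated degradation, did not pass.

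With plasma cell RNA as a covariate the ER falls in isotype Tregs went from 15 to 0 with the 3x mutein, 2 genes having an unadjusted p under 0.05, and from 15 to 2 with H16R, where 1 gene rose. Calls over all genes went down as well, from 32.3% to 5.38% lower with the 3x mutein and from 32.8% to 16.9% lower with H16R. Hspa5 was then at -0.15 (adjusted p = 0.469) and Creld2 at 0.16 (adjusted p = 0.801) with the 3x mutein. Plasma cell RNA and mutein treatment cannot be told apart in this arm, since the marker sums of the groups do not overlap.

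Under MHC II block WT IL-2 raised ER genes along with plasma cell RNA. Hsp90b1 stood at 450, 450, 532 and 428 CPM with PBS and at 828, 749, 525 and 866 with WT IL-2 (0.69 ± 0.11, adjusted p = 2.03e-05). Creld2 went from 32.6, 38.9, 44.0 and 36.2 CPM to 72.0, 64.0, 38.6 and 76.5 (0.74 ± 0.16, adjusted p = 0.000823), and Xbp1 from 114, 138, 160 and 143 to 254, 205, 147 and 251 (0.65 ± 0.12, adjusted p = 0.000209). In all 3 genes WT IL-2 replicate 3 was the lowest of its group and lay within the PBS range, and the same library has the lowest plasma cell sum of the group, 4144 CPM. Pdia4 (0.71 ± 0.10, adjusted p = 1.31e-05), Sel1l (0.57 ± 0.09) and Edem1 (0.39 ± 0.06, adjusted p = 1.58e-05) rose as well. With the covariate 13 ER genes rose (all genes in that fit, 17.8%), Hsp90b1 at 0.53 (adjusted p = 0.000574) and Creld2 at 0.49 (adjusted p = 0.0193). Plasma cell sums of these WT IL-2 (4144 to 10229 CPM) and PBS libraries (1555 to 3929 CPM) did not overlap. Plasma cell RNA and WT IL-2 treatment therefore cannot be told apart in this comparison.

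The 3x mutein under block split the ER genes. Dnajb11, the ER J-domain partner of Hspa5, rose from 100, 105, 109 and 98.5 CPM to 165, 134, 148 and 156 (0.54 ± 0.06, adjusted p = 6.61e-09), and Manf from 56.9, 56.1, 68.1 and 61.2 to 93.0, 78.4, 92.3 and 95.4 (0.56 ± 0.10, adjusted p = 2.16e-05). Pdia3 rose from 431, 420, 454 and 415 CPM to 610, 520, 563 and 618 (0.42 ± 0.05, adjusted p = 2.86e-08), and Sdf2l1 from 21.4, 23.8, 28.3 and 22.2 to 37.3, 30.9, 32.0 and 37.2 (0.51 ± 0.14, adjusted p = 0.00189). All 4 genes were higher in every 3x library than in every PBS library. Against them, Dnajb9 fell from 117, 111, 119 and 110 CPM to 55.5, 69.8, 59.3 and 55.6 (-0.94 ± 0.09, adjusted p = 9.03e-10), Hspa5 from 1497, 1521, 1694 and 1509 to 1153, 1295, 1124 and 1205 (-0.39 ± 0.06, adjusted p = 3.64e-06) and Herpud1 by 0.37 (adjusted p = 0.00384). Hspa5 and Dnajb9 were lower in every 3x library than in any PBS library. With the covariate 14 ER genes rose and 3 fell (all genes in that fit, 34.8% and 38.1%), Dnajb11 at 0.54 and Dnajb9 at -0.94. Other markers also moved from PBS to the 3x mutein under block without overlap: myeloid and dendritic markers from 72.9 to 103.96 CPM to 128.3 to 150.7 CPM, CD8 T and NK markers from 25.3 to 31.0 CPM to 31.3 to 57.8 CPM, Treg markers from 2608 to 2816 CPM to 3755 to 4228 CPM, T cell markers from 1148 to 1266 CPM to 1448 to 1583 CPM, and proliferation markers from 349.9 to 378.8 CPM to 1010 to 1382 CPM. With H16R the myeloid and dendritic sum was 113.4 to 153.5 CPM; the part of these markers was not tested.

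**Figure D4:**
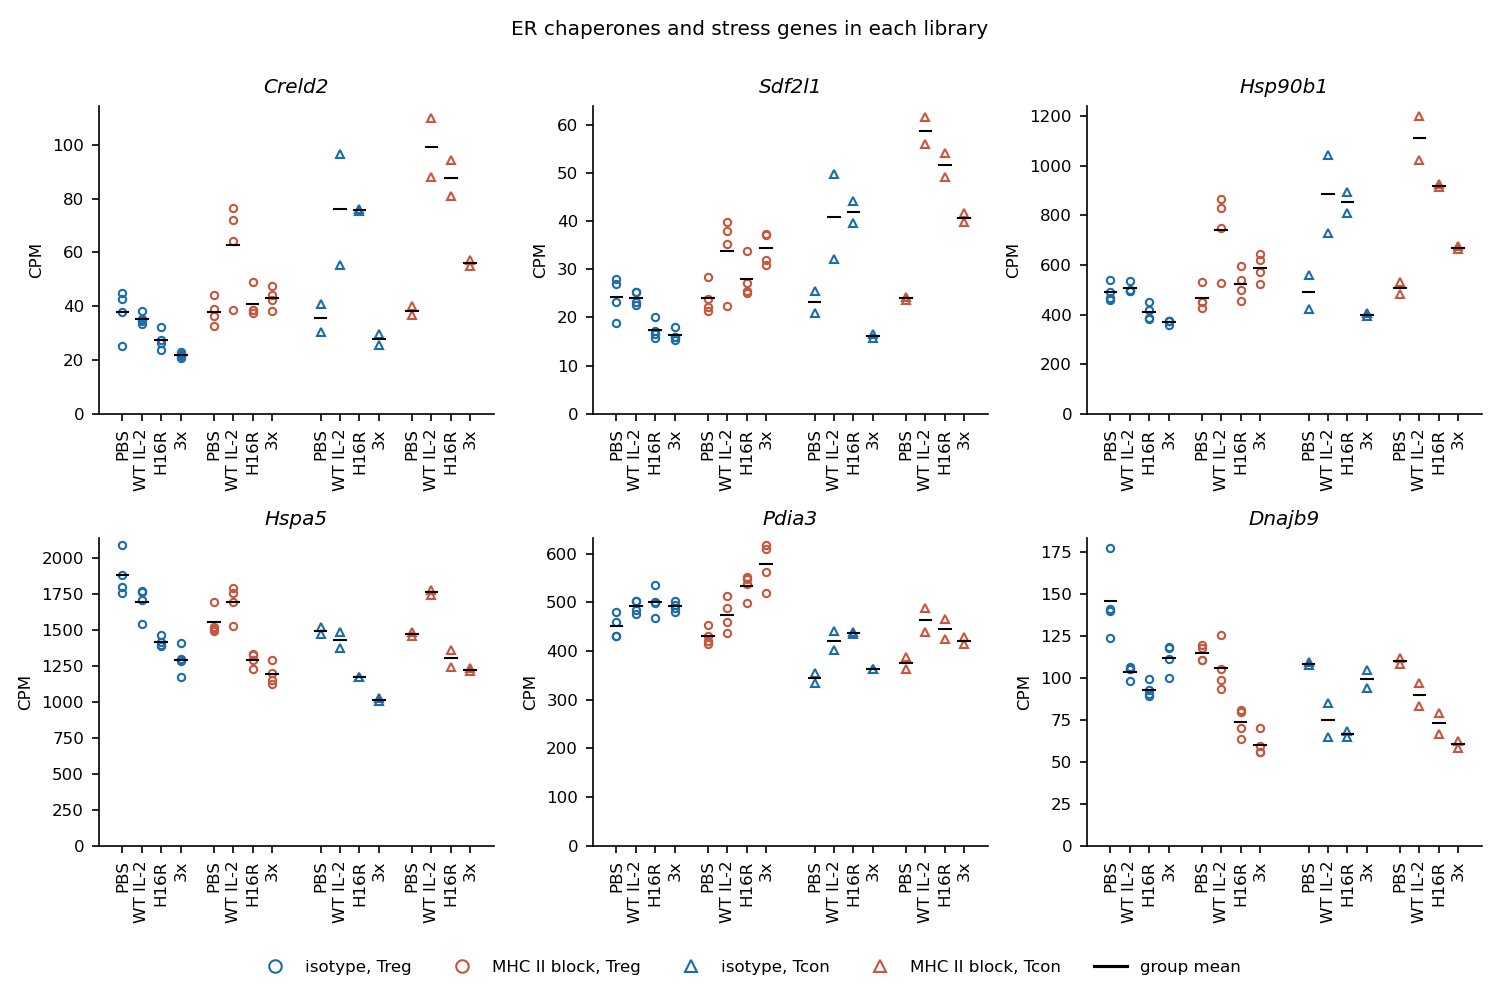
CPM of 6 ER genes in every library; circles are Tregs, triangles Tcons, blue isotype, red MHC II block, and black bars the group means. Under block the 3x mutein group is above PBS for Sdf2l1 (30.9 to 37.2 against 21.4 to 28.3 CPM) and Pdia3 and below it for Dnajb9 and Hspa5.

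The ER response to each molecule differed by antibody arm. The interaction was called positive for 15 of 19 ER genes with WT IL-2, 12 after H16R and 16 with the 3x mutein, and negative for 0, 0 and 1; of all genes 11.7%, 10.6% and 20.3% were called higher and 7.98%, 8.47% and 18.7% lower. The 3x mutein gave the largest values for Sdf2l1 (1.08 ± 0.20, adjusted p = 0.000217), Creld2 (0.96 ± 0.23, adjusted p = 0.00225), Xbp1 (0.92 ± 0.17, adjusted p = 0.00024), Manf (0.82 ± 0.14, adjusted p = 0.000131), Pdia4 (0.76 ± 0.15) and Pdia6 (0.76 ± 0.13). With WT IL-2 Xbp1 reached 0.88 ± 0.17 (adjusted p = 0.000784), Creld2 0.85 ± 0.22 (adjusted p = 0.0091) and Herpud1 0.80 ± 0.15 (adjusted p = 0.000776). With the plasma covariate 3, 2 and 5 ER interactions were called, where 6.56%, 13.4% and 18.9% of all genes were (19.6%, 19.1% and 39% without it), and Sdf2l1 and Creld2 with the 3x mutein were at 0.46 (adjusted p = 0.328) and 0.06 (adjusted p = 0.92). All 3 interactions share the 8 PBS libraries.

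The arms were also compared within a treatment. ER genes were higher with block in 12 of 19 for WT IL-2, 11 for H16R and 15 for the 3x mutein, and lower in 0, 1 and 2 (all genes higher 18.2%, 15.4% and 27.2%, lower 15.3%, 15.2% and 26.9%). Sdf2l1 was higher by 1.05 ± 0.14 (adjusted p = 7.79e-07) and Creld2 by 0.96 ± 0.16 (adjusted p = 2.36e-05) in 3x Tregs, whereas Dnajb9 was lower by -0.92 ± 0.09 (adjusted p = 1.26e-08). Cytosolic genes were lower in 10, 8 and 6 of 15 and higher in 0, 0 and 1, led in 3x Tregs by Dnajb4 (-1.15 ± 0.14, adjusted p = 1.92e-07) and Bag3 (-0.52 ± 0.10). With the plasma covariate 7, 9 and 3 cytosolic genes were called in either direction (all genes in that fit, 13.2%, 20.4% and 25%). Without the 2 libraries rich in B cell RNA 6 were lower and 3 higher in 3x Tregs. Plasma cell sums of the arms do not overlap in any of these 3 treatments, and with the covariate the ER genes higher with block were 6, 1 and 5 (all genes in that fit, 5.54%, 9.78% and 11.7%). Immediate early sums were lower with block, without overlap, for H16R (10731 to 11121 against 13729 to 14504 CPM) and the 3x mutein (7855 to 9994 against 10843 to 13402 CPM). Myeloid and dendritic sums were higher with block, without overlap: 98.4 to 688 against 73.3 to 95.6 CPM for WT IL-2 and 113 to 153 against 68.45 to 73.65 for H16R. For the 3x mutein they were 128 to 151 against 69.0 to 78.1 CPM. B cell sums were higher without overlap for H16R (65.1 to 105 against 41.1 to 54.2 CPM) and the 3x mutein (70.35 to 149 against 39.5 to 51.9 CPM). For WT IL-2 B cell sums overlapped. The part of these markers was not tested.

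**Figure D5:**
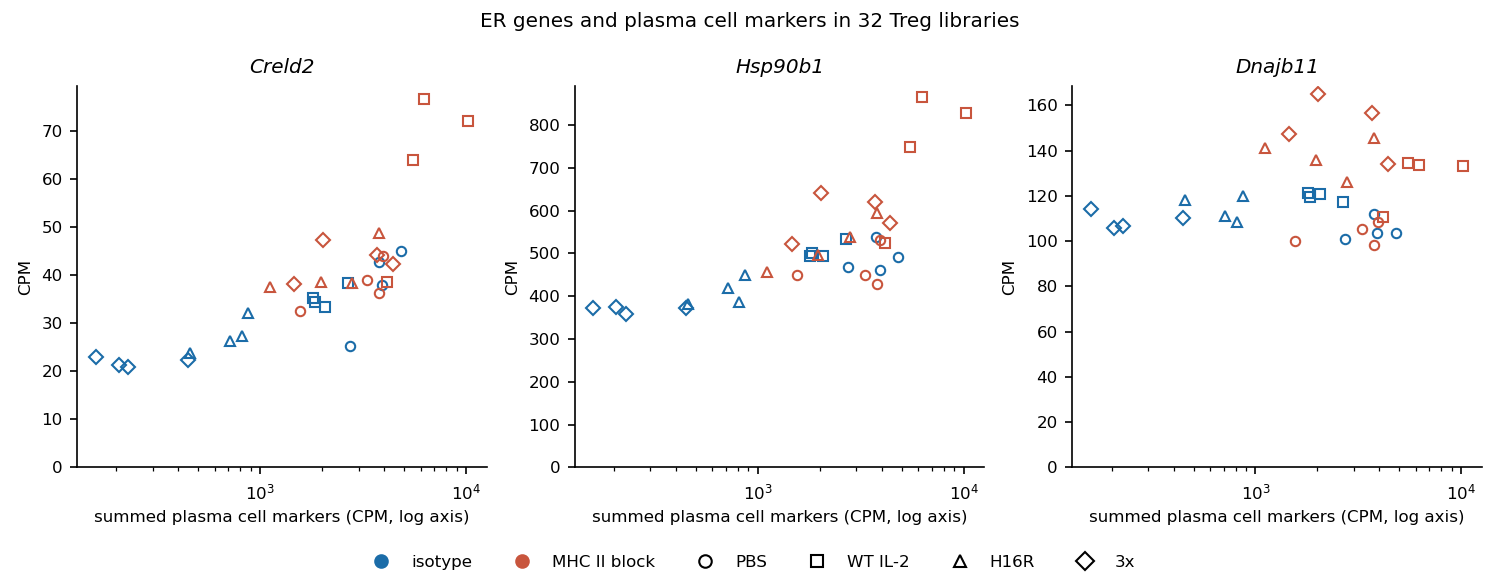
CPM of Creld2, Hsp90b1 and Dnajb11 (vertical axes) against the summed CPM of 9 plasma cell markers (horizontal log axis) in the 32 Treg libraries, coloured by antibody arm and marked by treatment. Isotype 3x libraries lie at 159 to 446 CPM of markers with Creld2 at 20.8 to 22.9 CPM, and block 3x libraries at 1463 to 4403 CPM with Creld2 at 38.2 to 47.3 CPM.

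Other genes of these pathways were followed as fixed lists. Their counts are for the 3x mutein against PBS, where 31.3% of all genes rose and 32.3% fell with isotype antibody, and 34.7% rose and 38.3% fell under block. Of 10 tested regulators of the unfolded protein response 1 rose and 7 fell with the 3x mutein and isotype antibody, and 2 rose and 5 fell under block; an eleventh, Ddit3, is listed at 0 in all 48 libraries. The sensor Ern1 fell with isotype antibody (-0.66 ± 0.11, adjusted p = 6.72e-06) and did not pass under block (0.10, adjusted p = 0.385). Eif2ak3 fell in both arms (-0.45 ± 0.07 and -0.29), as did Atf4, the transcription factor of the PERK branch (-0.29 ± 0.04 and -0.41). The third sensor, Atf6, stood apart: it was at 49.8 to 59.9 CPM with PBS and 49.0 to 54.0 with the 3x mutein in isotype Tregs (-0.08 ± 0.08, adjusted p = 0.394), but at 44.3 to 51.2 with PBS and 86.9 to 99.2 with the 3x mutein under block (0.91 ± 0.08, adjusted p = 3.25e-11; 0.93 with the plasma covariate). Its groups under block are separated by more than the range within either. Under block every WT IL-2 library (60.0 to 81.4 CPM) and every H16R library (72.6 to 84.4 CPM) also lay above PBS. Block Tcons held Atf6 at 48.6 CPM with PBS, 77.9 to 85.1 with WT IL-2, 73.6 to 79.7 with H16R and 62.4 to 63.5 with the 3x mutein. Mbtps2, a protease that activates Atf6, rose with the 3x mutein in Tregs by 0.26 ± 0.08 with isotype antibody and by 0.49 under block. Without isotype PBS replicate 3 the first of these was 0.16 (adjusted p = 0.074).

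Lists of ER entry, folding and disposal follow, the named genes being the extremes among those with a mean above 5 CPM. Among 18 tested genes of ER translocation and glycosylation 10 rose and 3 fell with the 3x mutein and isotype antibody, and 16 rose and 0 fell under block; Spcs1, of the signal peptidase, had the largest rise with isotype antibody (0.39 ± 0.07, adjusted p = 6.24e-05, and 0.84 ± 0.07 under block) and Rpn2, of the oligosaccharyl transferase, the largest fall (-0.17 ± 0.05, against 0.26 ± 0.05 under block). Of 15 genes of ER-associated degradation 6 rose and 3 fell with isotype antibody, and 8 and 1 did under block, with Vcp, the extracting ATPase, at 0.21 ± 0.04 and 0.36 and Edem2 at -0.50 ± 0.11 and 0.07 (adjusted p = 0.582). Of 22 other ER folding enzymes 5 rose and 8 fell with isotype antibody, numbers near the shares of all genes (31.3% and 32.3%), and 14 and 3 did under block (34.7% and 38.3%). The isomerase Txndc5, abundant in plasma cells, went from 147 to 236 CPM with PBS to 73.0 to 92.3 CPM with the 3x mutein in isotype Tregs (-1.24 ± 0.21, adjusted p = 1.13e-05) and was at 110 to 243 and 180 to 253 CPM under block (0.16, adjusted p = 0.486), while the co-chaperone Dnajc1 rose in both arms (0.31 ± 0.05 and 0.34). Among 33 other cytosolic chaperones 9 rose and 17 fell with isotype antibody and 11 and 13 under block; Dnajb2 had the largest fall (-0.79 ± 0.08, and -0.97 under block), Hspa4l, an Hsp110 relative, the largest rise (0.78 ± 0.07, and 0.60 ± 0.07 under block), and Hsf2 fell in both arms (-0.67 ± 0.09 and -0.64).

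In Tcons the ER genes rose with WT IL-2 and H16R and the mitochondrial chaperones did not pass. Here both antibody arms entered with the arm as a term, 4 mice per treatment. WT IL-2 raised 17 of 19 ER genes and lowered 0 (all 12529 genes tested, 14.8% and 12.4%), H16R raised 16 and lowered 2 (16.1% and 14.9%), and the 3x mutein raised 0 and lowered 1 (4.71% and 5.17%). Creld2 stood at 40.8 and 30.2 CPM (isotype) and 36.6 and 40.1 CPM (block) with PBS, at 96.7, 55.4, 88.0 and 110 with WT IL-2 (1.23 ± 0.20, adjusted p = 0.00221), at 76.1, 75.4, 94.5 and 81.1 with H16R (1.14 ± 0.20, adjusted p = 0.00212), and at 25.6, 29.7, 57.0 and 54.9 with the 3x mutein. Hsp90b1 rose with WT IL-2 from 560, 424, 531 and 482 CPM to 1041, 729, 1022 and 1199 (0.98 ± 0.15, adjusted p = 0.00179). The lowest WT IL-2 value of both genes is that of isotype replicate 2, the Tcon library with Treg markers, without which 17 ER genes were again higher. Plasma cell sums in Tcons were 2596 to 5234 CPM with PBS and 5778 to 7817 with WT IL-2. They were 3263 to 4244 CPM with H16R and 869 to 4164 with the 3x mutein. The sums of PBS and H16R Tcons thus overlapped, but some single plasma cell markers did not. Jchain stood at 603 to 1088 CPM with PBS and 1397 to 1593 with H16R, and Mzb1 at 58.5 to 98.3 and 147 to 206. Sdc1 and Tnfrsf17 were likewise higher in every H16R than in every PBS Tcon library. Proliferation markers also stood apart, at 367 to 445 CPM with PBS and 639 to 708 with H16R. The part of these markers was not tested.

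The 3x response of ER genes in Tcons differed between the arms. In a model with 1 coefficient per group, added after the data were seen and setting 2 mice against 2, the 3x mutein raised 0 and lowered 4 of 19 ER genes with isotype antibody (all genes, 6.27% and 8.26%), and raised 8 and lowered 2 under block (12.5% and 12%). Sdf2l1 went from 25.5 and 20.9 CPM to 15.7 and 16.6 with isotype antibody (-0.52 ± 0.17, adjusted p = 0.0729), but from 24.3 and 23.6 to 39.8 and 41.6 under block (0.77 ± 0.16, adjusted p = 0.00781). Both changes were without overlap, and the interaction, 1.29 ± 0.23, passed (adjusted p = 0.00364). Hsp90b1 went from 560 and 424 CPM to 394 and 406 with isotype antibody (-0.30, adjusted p = 0.269) and from 531 and 482 to 675 and 662 under block (0.40, adjusted p = 0.0998), with an interaction of 0.70 ± 0.22 (adjusted p = 0.0615). In all, 9 ER interactions with the 3x mutein were positive and 1 negative (all genes, 10.6% and 7.69%). With WT IL-2 13 ER genes rose and 1 fell with isotype antibody (7.48% and 7.49%), and 18 and 1 under block (19.4% and 15.4%), and with H16R 15 rose and 2 fell in either arm (12.5% and 13.6%, and 15.1% and 12%). In block Tcons myeloid and dendritic markers stood at 89.4 to 100.1 CPM with PBS and at 330.7 to 332.8 CPM with the 3x mutein; plasma cell sums with the 3x mutein were 869 to 914 CPM with isotype antibody and 2258 to 4164 CPM under block, and their part was not tested.

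In the pooled fit heat shock genes in Tcons fell with the 3x mutein in 6 of 15 cases (all genes, 5.17%), with H16R in 7 (14.9%) and with WT IL-2 in 2 (12.4%). With each molecule 0 rose (all genes, 4.71%, 16.1% and 14.8%). The WT IL-2 count lies near the share of all genes. Without isotype WT IL-2 replicate 2, the Tcon library with Treg markers, WT IL-2 had 3 lower and 2 higher. Immediate early genes in Tcons summed to 12205 to 13395 CPM with PBS, 11673 to 13362 with WT IL-2, 9240 to 11056 with H16R and 8240 to 11166 with the 3x mutein, so that neither mutein overlapped PBS; their part was not tested. Hspa1a stood at 115, 158, 152 and 216 CPM with PBS and 7.75, 22.6, 27.5 and 79.7 with the 3x mutein (-2.32 ± 0.57, adjusted p = 0.0346), without overlap. Dnajb4 fell with all 3 molecules, most with the 3x mutein (-0.80 ± 0.11, adjusted p = 0.00153), from 42.7, 50.3, 45.5 and 50.1 CPM to 30.2, 30.8, 21.7 and 26.0. Hspa5 was the ER gene that fell with the 3x mutein (-0.42 ± 0.06, adjusted p = 0.00411). The count of 7 genes called with the 3x mutein was 4 without block PBS replicate 2 or without block 3x replicate 1, and 11 without isotype WT IL-2 replicate 2. Of the mitochondrial genes 0 of 3 passed with any molecule in Tcons, 0 at an unadjusted p under 0.05 by edgeR and 0 called by DESeq2; Hspd1 was at 231, 234, 244 and 266 CPM with PBS and at 194, 187, 277 and 269 with the 3x mutein. This pooled value averages arms that lay on opposite sides of PBS: the summed CPM of the 3 genes with the 3x mutein was 465 to 473 against 536 to 550 with isotype antibody and 627 to 640 against 566 to 601 under block. Within the arms 0 of 3 passed as well, 0 at an unadjusted p under 0.05, with Hspe1 at -0.24 ± 0.12 and 0.21 ± 0.12, and its interaction of 0.45 ± 0.18 did not pass (adjusted p = 0.118). Cytosolic genes fell with the 3x mutein in both arms, 6 with isotype antibody (all genes, 8.26%) and 7 under block (12%), and 0 rose (6.27% and 12.5%).

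Tregs and Tcons of the same 16 mice differed in chaperone level. With the mouse as a block, 20 of the 37 genes were lower and 8 higher in Tregs (all 12845 genes tested, 37.7% and 38.2%), 12 lower and 3 higher among ER genes, 3 lower and 0 higher among mitochondrial genes, and 5 and 5 among cytosolic genes, the last 7 lower and 3 higher without TMM scaling, and likewise without the mouse whose Tcon library holds Treg markers (isotype WT IL-2 replicate 2). Hspa1a (-1.52 ± 0.09, adjusted p = 6.11e-11) and Hspa1b (-1.17 ± 0.08, adjusted p = 2.46e-10) had the largest differences; their median FPKM was 9.16 and 17.2 in Tregs and 29.1 and 43.6 in Tcons. Creld2 (-0.58 ± 0.13), Hsp90b1 (-0.43 ± 0.09), Hspa9 (-0.43 ± 0.06, adjusted p = 5.81e-06) and Hspd1 (-0.38 ± 0.07) were lower in Tregs. Higher in Tregs were Bag3 (0.41 ± 0.05, adjusted p = 1.72e-06), Pdia3 (0.27 ± 0.03, adjusted p = 1.16e-06), Dnajb9 (0.23 ± 0.05) and Hspa5 (0.15 ± 0.04). In these mice plasma cell sums were higher in Tcons than in Tregs without overlap with isotype antibody and WT IL-2 (6776 and 7817 against 1798 and 2060 CPM), H16R (3263 and 3418 against 712 and 870) and the 3x mutein (869 and 914 against 159 and 228), and with block and H16R (3605 and 4244 against 1966 and 2788), and overlapped in the other 4 groups. B cell markers ran from 157 to 1155 CPM in Tcons and from 41.4 to 767 CPM in Tregs. No covariate was fitted here, and the part of these cells was not tested.

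The response to IL-2 was compared between the cell types in the same mice, averaged over the antibody arms. For H16R 20 of 37 genes responded lower in Tregs than in Tcons and 1 higher (all genes, 18.8% and 21.8%), 14 of them ER genes and all 3 mitochondrial: the difference of log2 changes was -1.33 ± 0.18 for Creld2 (adjusted p = 0.000265), -1.07 ± 0.13 for Sdf2l1 (adjusted p = 9.47e-05), -0.91 ± 0.18 for Xbp1 (adjusted p = 0.00182) and -0.78 ± 0.12 for Hsp90b1 (adjusted p = 0.000506). For WT IL-2 9 genes, all of the ER, responded lower in Tregs and 0 higher (4.94% and 7.26%), with Creld2 at -0.86 ± 0.18 (adjusted p = 0.021); without the mouse of isotype replicate 2 there were 19 lower and 1 higher, and without that of replicate 1 there were 5 lower and 0 higher. For the 3x mutein 8 responded lower and 3 higher (22.2% and 24.3%), 13 and 1 without TMM scaling; among the mitochondrial genes Hspa9 (-0.48 ± 0.12, adjusted p = 0.00709) and Hspe1 (-0.48 ± 0.14, adjusted p = 0.0162) passed. For Hspa1a the difference did not pass, at -0.32 (95% interval -0.85 to 0.20 for the 3x mutein). Within the arms, 2 mice against 2, the response to the 3x mutein was lower in Tregs for 11 genes and higher for 0 with isotype antibody (all genes, 13.3% and 14.9%), and lower for 7 and higher for 3 under block (20.6% and 22.9%). All 3 mitochondrial genes were among the 7, with Hspe1 at -0.73 ± 0.12 (adjusted p = 0.000837), against 1 of 3 with isotype antibody, Hspa9 at -0.36 ± 0.14 (adjusted p = 0.089); whether the arms differ in this was not tested. Hspa1a then passed with isotype antibody (-0.66 ± 0.26, adjusted p = 0.0953) and not under block (0.06, adjusted p = 0.874). For H16R the counts were 21 lower and 1 higher with isotype antibody (15.2% and 19.8%) and 15 and 2 under block (11.7% and 14%), and for WT IL-2 13 and 0 (4.32% and 6.31%) and 1 and 2 (2.34% and 2.71%). Plasma cell sums were 2727 to 4814 CPM (PBS) and 457 to 870 CPM (H16R) in all isotype Tregs. In isotype Tcons they were 2596 and 5234 CPM (PBS) and 3263 and 3418 CPM (H16R). The plasma cell marker Jchain stood in isotype Tregs at 1464 to 1752 CPM (PBS) and 176 to 407 CPM (H16R). In isotype Tcons it stood at 753 to 1088 CPM (PBS) and 1426 to 1593 CPM (H16R). No covariate was fitted here, and the part of plasma cell RNA was not tested.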

How the data were processed

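Bulk RNA-seq of splenic Tregs (32 libraries) and Tcons (16 libraries) was analysed. The authors aligned stranded mRNA reads to mouse B38 with OSA in Omicsoft Array Suite (v10, GENCODE v19 as named in the methods) and deposited RSEM expected counts (estimated counts per gene, 72.8% of the nonzero values whole within 1e-06) and FPKM. The deposited FPKM values divide the authors' counts by transcript length and library depth. The authors' own comparison tables, which hold fold changes and p-values, were not used, and 0 columns belonged to no sample.

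Expected counts were rounded and tested with edgeR 4.0.16 (R 4.3.3; TMM scaling, quasi-likelihood test); p-values were adjusted by Benjamini and Hochberg across every gene tested, with a call at adjusted p under 0.1. Genes tested were protein-coding with CPM above 0.5 in at least 4 fitted libraries. The Treg model held one coefficient per group; the Tcon model pooled the arms with the arm as covariate (models with the arms apart were added after seeing the data); the comparison between cell types kept the mouse as block. Nothing says that a shared replicate number marks a shared batch, and same-numbered libraries did not deviate together. DESeq2 1.42.0, limma 3.58.1 on log2(FPKM + 1) or log2(FPKM + 0.1), no TMM, a plasma cell marker covariate and leaving out libraries were alternatives. The scripts were tested on simulated data.

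The chaperone genes, pathway lists and tests were chosen with earlier results of these data known. All 37 chaperones are named; of each pathway list, the largest rise and fall with the 3x mutein in isotype Tregs among called genes averaging over 5 CPM in the 32 Treg libraries, with the stress regulators Ern1, Eif2ak3, Atf6, Atf4, Ddit3 and Hsf2, and Foxp3 and Il2ra as checks of identity. Il2ra rose by 0.81 (log2) with the 3x mutein in isotype Tregs.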

Additional observations from a re-analysis of the deposited data

Results flagged for a closer look

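In groups of 4 Treg libraries, 16 of 296 tests of a single library by Dixon's criterion passed the 95% critical value; chance alone passes about 1 in 20. Block WT IL-2 replicate 1, the library with B cell and myeloid RNA, was far above the others of its group for Hspa1a (149.24 CPM) and Hspa1b (197.52 CPM), and replicate 2 of that group for Hspa8 (2254.32 CPM). Block PBS replicate 3 was high for Hsp90aa1 (650.88 CPM), Hspa5 (1693.9 CPM) and Pdia6 (127.79 CPM). High values also stood at isotype H16R replicate 2 (Hspe1, 90.6 CPM), isotype 3x replicate 4 (Hspe1, 81.98 CPM), isotype 3x replicate 3 (Bag3, 28.34 CPM), isotype WT IL-2 replicate 3b (Hsp90b1, 534.65 CPM) and block H16R replicate 3 (Creld2, 48.85 CPM). Low values stood at isotype 3x replicate 2 (Hsp90b1, 357.94 CPM), isotype WT IL-2 replicate 3b (Dnajb9, 97.97 CPM), block WT IL-2 replicate 3 (Dnajb11, 110.74 CPM), isotype PBS replicate 1 (Dnajc3, 124.27 CPM) and isotype H16R replicate 4 (Dnajc3, 118.85 CPM).

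Differences of a response between antibody arms or cell types are listed where the test of the difference passed and it reached 0.75 on the log2 scale. Between the arms in Tregs, the response to WT IL-2 was higher under block for Xbp1 (0.878), Creld2 (0.852) and Herpud1 (0.8). The response to the 3x mutein was higher under block for Hspa1a (2.225), Hspa1b (1.773, lost without isotype PBS replicate 3 at 1.445), Sdf2l1 (1.081), Creld2 (0.962), Xbp1 (0.921), Manf (0.824), Pdia4 (0.763) and Pdia6 (0.755). Between the cell types, Creld2 responded lower in Tregs than in Tcons to WT IL-2 (-0.861), and to H16R so did Creld2 (-1.326), Sdf2l1 (-1.07), Xbp1 (-0.908) and Hsp90b1 (-0.78). With the arms fitted apart, the response of Tcons to the 3x mutein was higher under block for Sdf2l1 (1.291), Creld2 (0.908), Xbp1 (0.85) and Pdia4 (0.764). Between the cell types with isotype antibody, the response to WT IL-2 was lower in Tregs for Creld2 (-1.307), Xbp1 (-1.11), Sdf2l1 (-0.837), Manf (-0.775) and Hsp90b1 (-0.765), and to H16R for Creld2 (-1.575), Sdf2l1 (-1.244), Xbp1 (-1.172), Hsp90b1 (-0.899), Hspa1b (-0.85), Pdia6 (-0.818) and Manf (-0.76). Under block it was lower in Tregs to H16R for Creld2 (-1.08) and Sdf2l1 (-0.898), and higher to WT IL-2 for Hspa1a (0.751). Plasma cell sums separated some of these groups and overlapped in others, and with them as a covariate the interaction of the 3x mutein and block was called for 9 of the 37 genes.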

How the results depend on the processing

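Counts are of the 37 genes called. With the plasma cell covariate they were 15 for H16R (32 without it) and 5 for the 3x mutein (31) against PBS in isotype Tregs, 13, 13 and 13 for block against isotype with WT IL-2, H16R and the 3x mutein (23, 20 and 25), 1 and 0 for H16R and the 3x mutein against WT IL-2 (20 and 22), and 3, 2 and 9 for the interactions (16, 12 and 25). Over all 12390 genes the isotype comparisons with PBS likewise made 4666 calls with H16R (7952 without the covariate) and 1707 with the 3x mutein (7886). Log2 changes that turned with it were, for H16R in isotype Tregs, Bag3 0.005, Hsp90b1 0.118, Pdia4 0.176, Creld2 0.117 and Sel1l 0.302, and for the 3x mutein Hsp90b1 0.208, Pdia3 -0.02, Pdia4 0.234, Xbp1 0.131, Sdf2l1 0.091, Creld2 0.164, Manf 0.003 and Herpud1 0.037. Chordc1 with the 3x mutein under block was -0.003 by limma at either pseudocount. At adjusted p under 0.05, H16R against WT IL-2 had 10 genes and the response to the 3x mutein 7 (11). The response to WT IL-2 had 14 without TMM and 15 by limma (9). With the arms fitted apart, chosen after seeing the data, block Tcons had 17 genes with the 3x mutein (7 pooled) and block mice 3 for the response to WT IL-2 (9). The causes of these moves were not tested.

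Leaving out 1 library gave 13 to 19 genes for WT IL-2, 28 to 32 for H16R and 29 to 31 for the 3x mutein in isotype Tregs, and 20 to 26, 23 to 28 and 29 to 32 under block. H16R against WT IL-2 ranged from 6 (without H16R replicate 3) to 21, with 9 without WT IL-2 replicate 3b, 10 without H16R replicate 4 and 13 without H16R replicate 1. The 3x mutein in Tcons ranged from 4 to 11, the response to WT IL-2 from 5 to 20 and that to the 3x mutein from 7 (without the mouse of isotype PBS replicate 1 or 2 or of block 3x replicate 1) to 14. With the replicate number as a block, isotype counts were 19, 31 and 31 and the 3x interaction 28, all within 1.5 times; same-numbered libraries had a median correlation of 0.018 over 112 pairs, so the numbers do not pair them, and 9 libraries correlated best with their own number. Without the mouse as replicate block, Tregs against Tcons gave 25 (28). Without TMM the median of all genes shifted by at most 0.085.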
